A study of Mus musculus with 3 samples.

Results

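The genes described here are 10 purine receptors and ectonucleotidases grouped with P2rx7: the ATP-gated channels P2rx7, P2rx4 and P2rx1, the nucleotide receptors P2ry1, P2ry12 and P2ry14, the ectonucleotidases Entpd1 and Nt5e, and the adenosine receptors Adora2a and Adora2b. They were chosen by name, with earlier results of these data known. P2rx7 encodes P2X7R, 1 of the 12 antibody targets of the study. The products of the other genes sense or degrade extracellular nucleotides, UDP-glucose or adenosine. They are 10 of the 32542 annotated genes over which chromatin accessibility was counted. The cells were long-term haematopoietic stem cells (LT-HSCs) taken from marrow of C57BL/6 mice (Wild-type, females; C57BL/6J by the study's methods) aged 24 months. Marrow was enriched for c-Kit, and by the study's methods the sort kept Lin-, Sca-1+ and c-Kit+ cells that were positive for CD150 and negative for CD48 and CD34. All of the cells formed 1 pool. Open chromatin, RNA and surface antibody tags were read from the same cells as 3 libraries (DOGMA-seq), and the ATAC and antibody libraries are used here. With 1 pool there is no biological replicate, so no test was made, and every interval below is a 95% interval that covers counting error only. A difference is called past the fold where the log2 ratio of 2 groups of cells is at least 0.32 in size, over at least 100 fragments. Levels are counts per 1000000 nuclear fragments of the same cells (CPM).

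Extracellular ATP is released by stressed or dying cells and by activated platelets. P2X channels open when they bind it, and P2X7, which needs high ATP, is known for starting the NLRP3 inflammasome. P2Y receptors are coupled to G proteins: P2Y1 and P2Y12 are the ADP receptors of platelets, and P2Y14, a receptor for UDP-glucose, has been studied on haematopoietic stem cells under stress. The ectoenzyme CD39 (Entpd1) degrades ATP and ADP to AMP, CD73 (Nt5e) turns AMP into adenosine, and the products of Adora2a and Adora2b are receptors for adenosine.

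Of the 3724 barcodes in the antibody table, 3629 carried at least 10 tags and were kept, and all of them were among the 4369 barcodes that the authors' pipeline called as cells on ATAC and RNA together. They gave 38498362 nuclear fragments, with a median of 10287 per cell and a range from 3853 to 45069. Genes of the stem cell list had an open site (defined below) near the start in 8 of 10 cases and megakaryocyte genes in 6 of 8, against 1 of 8 T cell genes, 3 of 8 macrophage, B cell and erythroid genes each and 63.6% of all protein-coding genes. By promoter level the stem cell and megakaryocyte lists were mixed: 5 of 10 and 4 of 8 genes were above the median of protein-coding genes (9.92 CPM), with Kit at 43.7 CPM and Hlf at 33.2 but Slamf1, which encodes CD150, at 4.29, Ly6a, which encodes Sca-1, at 2.99 and Mecom at 0.494. Promoter levels ran from 0.0779 to 3.84 CPM over the T cell genes, none of them above that median. Over the B cell genes they ran from 0.05195 CPM for Ms4a1 to 12.8 for Ebf1, a factor of early B cells and the only one of the 8 above it.

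Surface P2X7R was read through a DNA tag on the antibody, and the tag is printed because every split of cells by P2X7R rests on counting it:
P2X7R tag: TGCTTCATTCATGTG
In all, 2042 such tags were counted. No tag was found in 2304 cells, 1 in 877 cells, 2 in 283 cells and 3 or more in 165 cells, so the 1325 tagged cells made up 36.5% (34.9 to 38.1) of the kept cells. The highest count in a cell was 12, and the variance of the count was 1.59 times its mean. Cells with more P2X7R tags also carried more tags of other antibodies: the median number of other tags was 28 at 0 P2X7R tags, 29 at 1, 30 at 2 and 33 at 3 or more. With cells in 3 groups by their number of other tags, the share of tagged cells was 31.2% in the lowest group, 36.5% in the middle and 42.2% in the highest. Tags of CD357 (GITR, a receptor of the TNF receptor family) averaged 2.98, 3.46, 4.01 and 4.73 per cell at 0, 1, 2 and 3 or more P2X7R tags. In the same order CD274 averaged 20.4, 21.9, 23.5 and 25.9, and CD27 averaged 0.870, 0.952, 1.04 and 1.04. CD61 (integrin beta 3) averaged 3.78, 3.72, 3.48 and 4.32. Sequencing depth differed less, with a median of 10414 nuclear fragments in tagged cells and 10186 in untagged cells.

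The chromatin at P2rx7 is described by 3 sequences of mm10, printed 5′ to 3′ on the strand of the gene. The first and second are the 300 bases around the upstream and the downstream RefSeq start, and the third is centred on the strongest open site of the gene, in an intron. Capitals mark letters of 5 motifs on either strand, searched as GATAA (GATA factors), TGTGGT (RUNX), CGGAAG (ETS), TGANTCA (AP-1 and NF-E2) and GGGCGG (SP and KLF).
P2rx7 upstream start, chr5:122643677-122643976, plus strand: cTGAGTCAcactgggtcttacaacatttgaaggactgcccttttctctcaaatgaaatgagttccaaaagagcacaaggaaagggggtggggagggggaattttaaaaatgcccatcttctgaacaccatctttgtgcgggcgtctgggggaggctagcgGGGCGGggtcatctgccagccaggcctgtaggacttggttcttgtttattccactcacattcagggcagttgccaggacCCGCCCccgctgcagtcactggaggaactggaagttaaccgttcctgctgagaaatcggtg
P2rx7 downstream start, chr5:122650133-122650432, plus strand: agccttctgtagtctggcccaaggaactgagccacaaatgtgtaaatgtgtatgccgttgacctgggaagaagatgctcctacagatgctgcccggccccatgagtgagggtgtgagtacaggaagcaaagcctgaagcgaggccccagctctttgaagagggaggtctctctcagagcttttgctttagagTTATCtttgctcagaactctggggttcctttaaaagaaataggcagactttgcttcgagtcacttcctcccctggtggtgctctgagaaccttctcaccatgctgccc
P2rx7 intron site, chr5:122669141-122669440, plus strand: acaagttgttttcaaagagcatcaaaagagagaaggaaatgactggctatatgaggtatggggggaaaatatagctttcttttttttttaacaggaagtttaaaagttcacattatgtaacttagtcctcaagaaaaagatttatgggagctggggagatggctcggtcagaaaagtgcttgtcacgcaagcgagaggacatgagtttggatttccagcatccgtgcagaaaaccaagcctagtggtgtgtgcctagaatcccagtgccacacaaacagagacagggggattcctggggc
The upstream window held 8 CpG dinucleotides, 2 SP and KLF matches and 1 AP-1 and NF-E2 match, and the downstream window held 4 CpGs and 1 GATA match. The intron site held 4 CpGs and none of the 5 letter strings. Of 32851 RefSeq start windows of this length, 35.7% held GGGCGG, 25.4% GATAA, 16.9% CGGAAG, 16.8% TGTGGT and 7.81% TGANTCA, and the median window held 7 CpGs. Of 106666 open sites cut to the same length, 24.3% held GGGCGG, 24.9% GATAA, 23.1% TGTGGT, 11.97% CGGAAG and 10.4% TGANTCA. A match is a run of letters and does not show that a factor was bound.

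P2rx7 (chr5:122643911-122691432, plus strand) was open at its start and at several places within the gene. Its promoter, taken as 1 kb on each side of the gene start, held 532 fragments, 13.8 CPM (12.7 to 15.04), in 12.3% of cells (11.2 to 13.4). The median of protein-coding genes was 9.92 CPM. The gene body with 2 kb upstream held 3135 fragments, 1.64 CPM per kb, and at least 1 of these was found in 52.6% of cells. Only 17.0% of the gene's fragments lay in the promoter window.

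An open site was defined as a 500-base window centred on a summit where transposase insertions over 200 bases were at least 10 times the genome mean. Multiples of the mean refer to the 200 bases, and fragments, levels and shares of cells at a site to its 500 bases. Windows were taken from the highest downwards, with summits at least 500 bases apart. A flank of a strong peak can therefore count as a further site, and counts of sites are not counts of separate peaks. P2rx7 had 12 such sites. Those at the start stood 40 bases upstream and 460 bases downstream of it, at 41.1 and 72.9 times the mean. The site 1.64 kb into the gene reached 76.8 times, the one at 9.68 kb 64.8 times, and the one at 25.38 kb, the intron site printed above, 105 times the mean. The intron site was read in 13.3% of cells (12.2 to 14.4), against 9.31% (8.39 to 10.3) for the stronger of the start sites, so these intervals do not overlap. The 2 start sites abut, so each covers only part of the open start. The promoter window as a whole was read in 12.3% of cells (11.2 to 13.4), which overlaps the interval of the intron site. Of the fragments of the intron site, 46.6% were shorter than the DNA that wraps a nucleosome, compared with 32.7% of all fragments. The 300 bases at the downstream start, from which an annotated transcript with another first exon begins, held 39 fragments in 0.992% of cells (0.696 to 1.37), while those at the upstream start held 212 fragments in 5.29% (4.58 to 6.07). The median over all RefSeq start windows was 32 fragments.

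**Figure D1:**
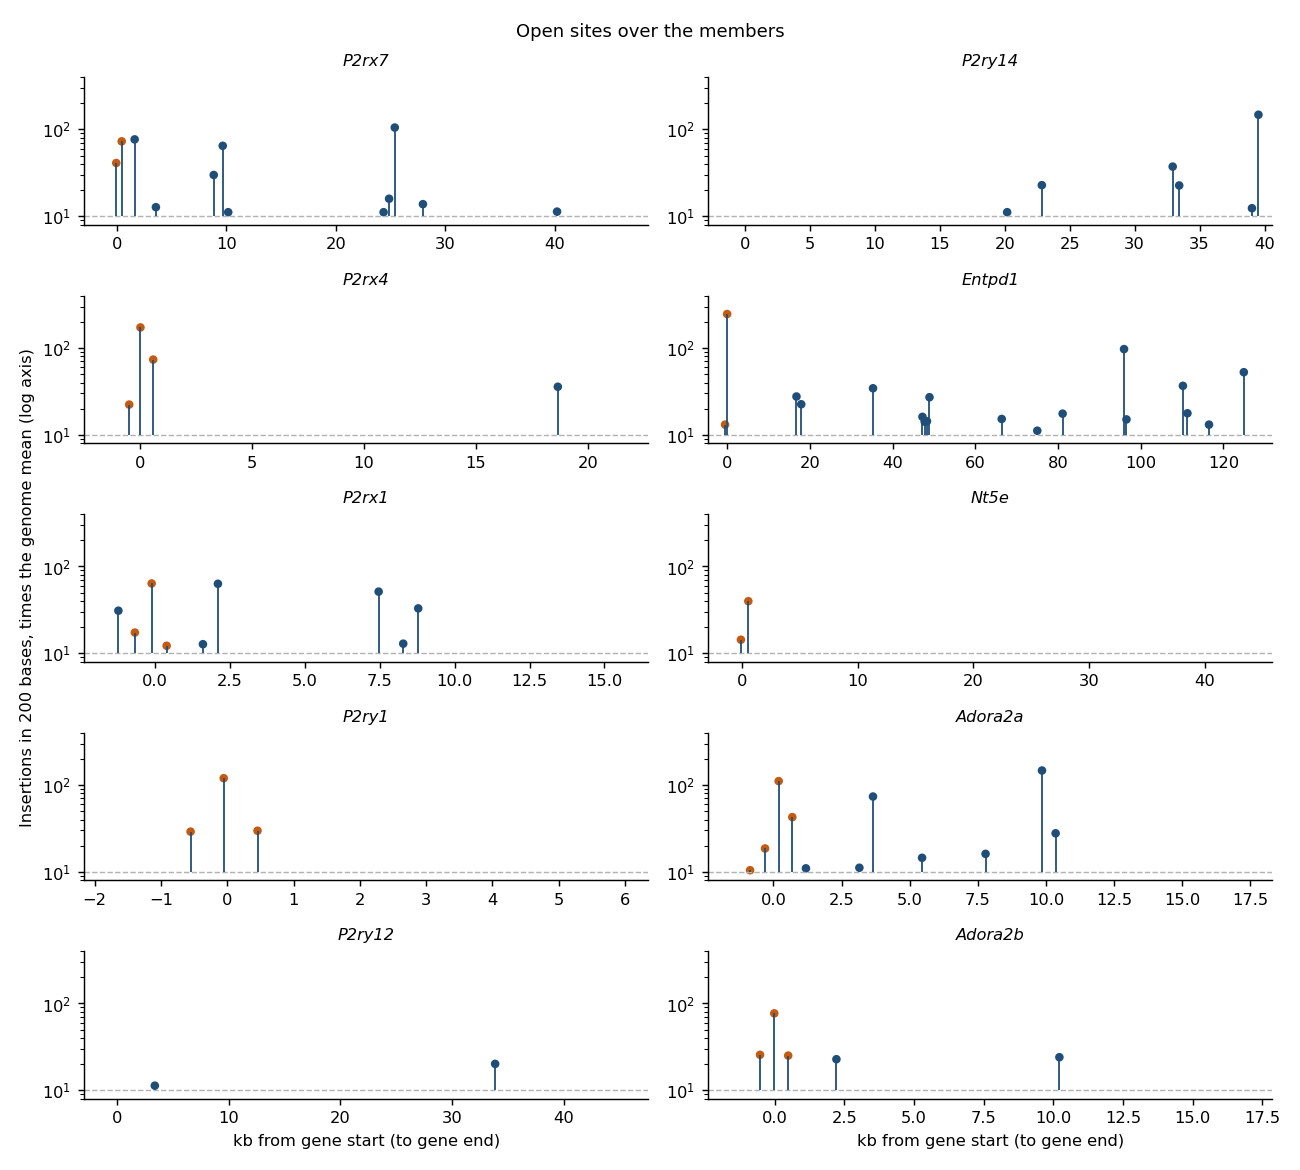
Open sites over each of the 10 genes: the horizontal axis gives the distance of the site's summit from the gene start in kb, in the direction of transcription and up to the gene end, and the vertical axis gives insertions in 200 bases as a multiple of the genome mean on a log scale. Sites within 1 kb of the start are orange and the others blue, the dashed line marks 10 times the mean, P2rx7 is highest at 25.38 kb, P2ry14 is highest near its end, and P2ry12 and P2ry14 have no orange point.

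The other channels differed from P2rx7 in where they were open. P2rx4 (chr5:122707544-122729738, plus strand), an ATP-gated channel that lies next to P2rx7 and can assemble with it, had the highest promoter level of the 10 genes, with 38.3 CPM (36.4 to 40.3) in 31.0% of cells. Of its fragments, 72.7% lay in the promoter window, where the site at the start reached 172 times the mean. P2rx4 had only 1 site away from the start, at 18.65 kb and 35.8 times the mean. P2rx1 (chr11:72999103-73015200, plus strand), the fast ATP-gated channel of platelets, had 15.1 promoter CPM (13.9 to 16.4), whose interval overlaps that of P2rx7. It had 9 sites in 18.1 kb, including 1 at 102 bases upstream of the start (63.7 times the mean) and 1 at 2.108 kb (63.2 times).

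Among the 3 P2Y receptor genes, P2ry1 stood apart at its start from P2ry12 and P2ry14, and the starts are printed, beside that of P2rx1, to show the difference in base composition. P2ry14 has several annotated starts, and the most distal and the most open of these are given:
P2ry1 start, chr3:61002535-61002834, plus strand: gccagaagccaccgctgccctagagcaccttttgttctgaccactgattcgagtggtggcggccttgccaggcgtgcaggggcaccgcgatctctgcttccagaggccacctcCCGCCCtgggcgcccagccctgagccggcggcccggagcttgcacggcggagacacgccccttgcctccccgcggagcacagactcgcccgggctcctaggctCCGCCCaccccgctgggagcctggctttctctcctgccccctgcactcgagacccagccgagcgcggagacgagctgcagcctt
P2rx1 start, chr11:72998895-72999194, plus strand: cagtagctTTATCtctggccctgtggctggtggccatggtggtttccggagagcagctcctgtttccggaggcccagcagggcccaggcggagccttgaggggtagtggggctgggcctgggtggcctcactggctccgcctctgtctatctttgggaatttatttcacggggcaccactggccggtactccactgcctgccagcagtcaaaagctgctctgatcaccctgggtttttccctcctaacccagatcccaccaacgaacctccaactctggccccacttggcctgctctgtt
P2ry12 start, chr3:59262936-59263235, minus strand: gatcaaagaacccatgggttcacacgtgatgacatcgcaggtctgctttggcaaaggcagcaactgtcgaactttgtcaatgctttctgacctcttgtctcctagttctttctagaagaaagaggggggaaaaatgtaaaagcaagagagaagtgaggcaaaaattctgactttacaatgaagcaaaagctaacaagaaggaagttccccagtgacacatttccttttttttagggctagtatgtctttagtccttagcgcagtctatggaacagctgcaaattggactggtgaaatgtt
P2ry14 distal start, chr3:59153443-59153742, minus strand: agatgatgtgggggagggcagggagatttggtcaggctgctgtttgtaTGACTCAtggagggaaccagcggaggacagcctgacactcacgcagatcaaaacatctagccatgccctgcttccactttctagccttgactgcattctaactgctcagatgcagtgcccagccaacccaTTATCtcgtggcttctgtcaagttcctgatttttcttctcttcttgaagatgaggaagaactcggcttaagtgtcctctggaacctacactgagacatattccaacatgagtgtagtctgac
P2ry14 internal start, chr3:59130713-59131012, minus strand: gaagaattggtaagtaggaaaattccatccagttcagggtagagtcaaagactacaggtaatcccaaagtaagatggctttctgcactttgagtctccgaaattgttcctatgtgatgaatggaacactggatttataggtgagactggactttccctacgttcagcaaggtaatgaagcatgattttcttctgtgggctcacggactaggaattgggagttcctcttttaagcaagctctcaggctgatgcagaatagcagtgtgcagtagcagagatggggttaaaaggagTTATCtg
The P2ry1 window held 25 CpGs and 2 SP and KLF matches, and the P2rx1 window 7 CpGs and 1 GATA match. The P2ry12 window held 4 CpGs and no match to the 5 strings. The P2ry14 windows held 4 and 3 CpGs, each with 1 GATA match, and the distal one also had 1 AP-1 and NF-E2 match. There were 524 fragments in the P2ry1 window and 296 in that of P2rx1. P2ry12 held 15, and P2ry14 held 10 at the distal and 104 at the internal start.

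P2ry1 (chr3:61002795-61008982, plus strand), the platelet ADP receptor that starts shape change, had 20.1 promoter CPM (18.7 to 21.6), and 92.4% of its fragments lay in the promoter window. All of its 3 sites lay within 1 kb of the start and reached up to 120 times the mean. The antisense gene Gm37035 overlaps this start, and fragments carry no strand, so the level cannot be assigned to either gene. P2ry12 (chr3:59216272-59262871, minus strand), the ADP receptor that clopidogrel blocks and a marker of microglia, had 1.92 promoter CPM (1.51 to 2.41) in 1.87% of cells and no open site within 1 kb of its start. P2ry14 (chr3:59113855-59153618, minus strand) had the lowest promoter level, 0.701 CPM (0.462 to 1.02) from 27 fragments in 0.689% of cells. Both low levels were above the 95th percentile of 1134 olfactory receptor genes, a family that is silent outside the nose, which was 0.338 CPM.

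P2ry14 was nevertheless open elsewhere. Over its body it held 1.29 CPM per kb, above the protein-coding median of 0.822, and 1.3% of its fragments lay in the promoter window. Its 6 sites all lay 20 kb or more into the gene. One stood at the internal start at 22.86 kb (22.8 times the mean), and the strongest stood 39.5 kb from the distal start, at the 3′ end of the gene (chr3:59113841-59114340). This site reached 148 times the mean, higher than 92.5% of all open sites, and was read in 18.02% of cells (16.8 to 19.3). P2ry12 had 2 sites, at 3.38 kb (11.3 times) and 33.86 kb (20.2 times). Both genes lie wholly inside Med12l, a Mediator subunit gene on the opposite strand, and their fragments cannot be told apart from those of Med12l.

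The ectonucleotidase genes stood at different levels. Entpd1 (chr19:40612366-40741602, plus strand) had 31.5 promoter CPM (29.7 to 33.3) in 27.5% of cells, and its start carried the strongest site of the 10 genes, at 246 times the mean. This start is shared: Tctn3, a tectonic gene of the ciliary transition zone, begins on the opposite strand within the same window. Of the fragments there, 62.1% were shorter than the DNA that wraps a nucleosome, the highest share among the 10 promoters. Entpd1 had 18 sites, and those near its downstream RefSeq start, 47 kb into the gene, reached 14.2 to 27.1 times the mean, while a site at 95.98 kb reached 97.0 times. Nt5e (chr9:88327197-88372092, plus strand) had 10.2 promoter CPM (9.22 to 11.3) in 9.75% of cells, close to the protein-coding median, and 2 sites, both near the start, of which the stronger reached 39.8 times.

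The adenosine receptor genes had promoter levels whose intervals overlapped, 21.0 CPM (19.6 to 22.5) for Adora2a and 20.3 (18.9 to 21.8) for Adora2b. Their bodies differed. Adora2a (chr10:75316877-75334784, plus strand) had the highest body level of the 10 genes, 3.37 CPM per kb (3.24 to 3.51), and 11 sites. The strongest of these was not at the start (111 times) but in an intron at 9.854 kb, at 146.7 times the mean in 15.8% of cells (14.6 to 17). Adora2b (chr11:62248984-62266453, plus strand) had 1.71 (1.62 to 1.81) CPM per kb and 5 sites, the strongest 13 bases upstream of its start, at 77.0 times.

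By promoter level the order was P2rx4, Entpd1, Adora2a, Adora2b, P2ry1, P2rx1, P2rx7, Nt5e, P2ry12 and P2ry14. Intervals of neighbours overlapped from Adora2a through P2ry1 and between P2rx1 and P2rx7, and did not overlap at the other steps. In all, 72 sites lay over the 10 genes, 22 of them within 1 kb of a gene start and 50 elsewhere, of which most were in introns. This is 1.77 sites per 10 kb, against 0.748 over all protein-coding genes. A site within 1 kb of the start was found in 8 of the 10 genes, against 63.6% of all protein-coding genes and 0.617% of olfactory receptor genes. In 4 of the genes, P2rx7, P2ry12, P2ry14 and Adora2a, the strongest site lay over 1 kb from the start. At the depth of single cells the promoters were sparsely read: 20.6% of cells had no fragment in any of the 10 windows, 33.0% had fragments in 1, 27.9% in 2 and 13.2% in 3 of them.

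**Figure D2:**
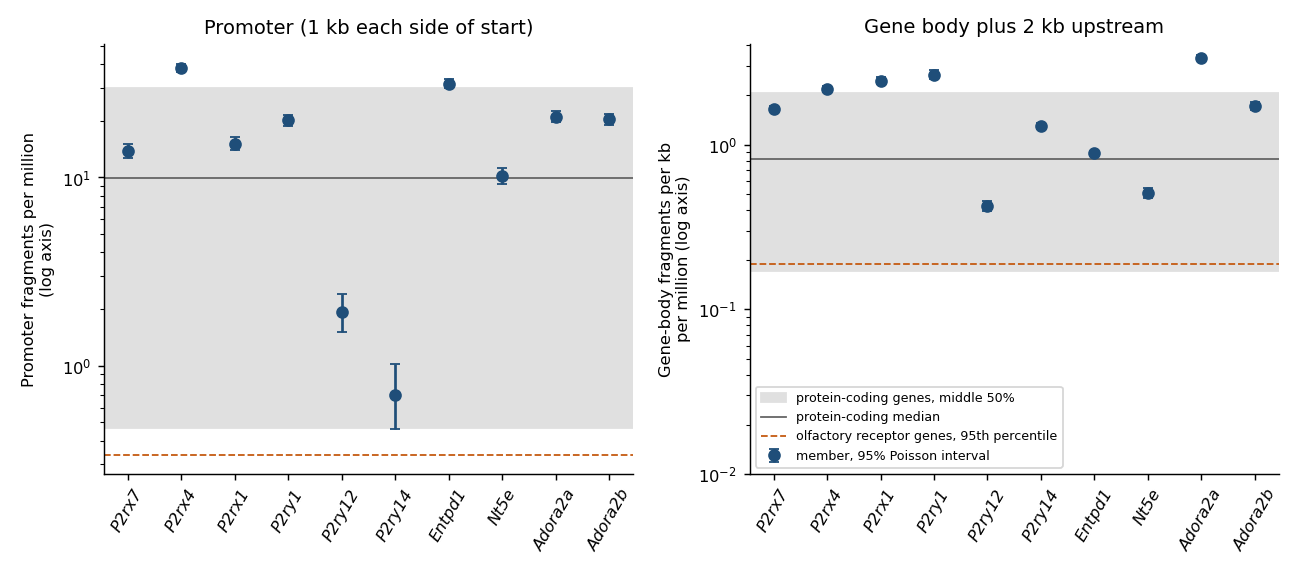
Accessibility of each gene in the 3629 cells, with promoter CPM on the left and gene-body CPM per kb on the right, both on log axes. Points are the pooled value and bars the 95% Poisson interval, the grey band spans the middle 50% of protein-coding genes, the line is their median, and the dashed line is the 95th percentile of olfactory receptor genes. P2ry12 and P2ry14 lie low on the left, and P2ry14 lies above the median on the right.

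**Figure D3:**
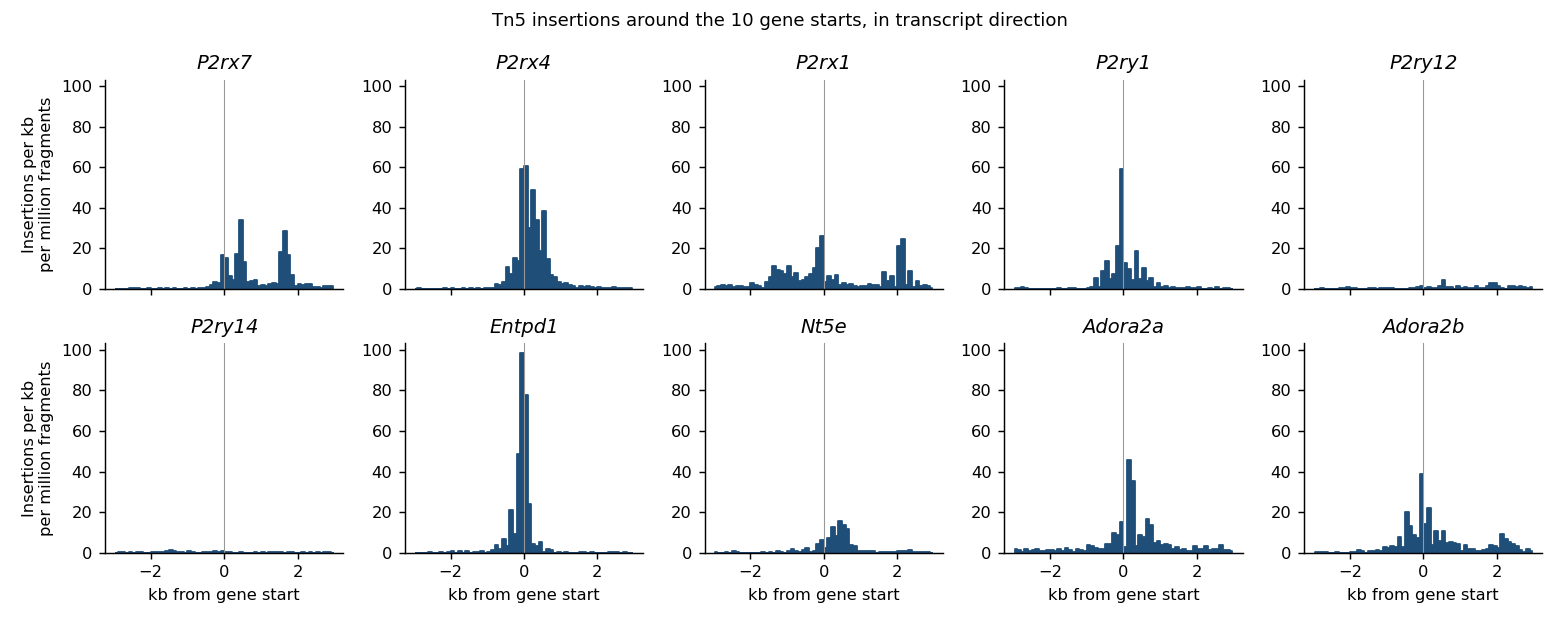
Transposase insertions per kb per 1000000 nuclear insertions, in 100-base steps from 3 kb before to 3 kb after each gene start, in transcript direction and on a common scale. Insertions were counted at both ends of each fragment, and the total of insertions is the divisor, although the axis label names fragments. Entpd1 has the tallest peak, P2rx7 has separate peaks at the start, at 460 bases and at 1.64 kb, and P2ry12 and P2ry14 have none at the start.

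The next comparison asked whether cells with the P2X7R tag differed at the P2rx7 gene. Over the gene body, tagged cells had 1201 fragments, 83.4 CPM, and untagged cells had 1934, 80.2 CPM. The log2 ratio was 0.06 (-0.05 to 0.16), and its whole interval lay inside the limit of 0.32. Of the 1325 tagged cells, 877 carried only 1 tag, so this split may separate cells with and without surface P2X7R poorly. By tag number the level was 80.2 CPM (76.7 to 83.9) at 0 tags, 88.1 (82.2 to 94.3) at 1, 72.3 (63.1 to 82.5) at 2 and 78.3 (66.2 to 91.9) at 3 or more. The level did not rise or fall steadily with the number of tags, and the intervals at 0 and at 3 or more overlap. In the promoter the levels were 14.5 CPM in tagged and 13.4 in untagged cells, a log2 ratio of 0.12 (-0.14 to 0.37). By tag number the promoter held 13.4 CPM (11.98 to 14.9) at 0 tags, 14.4 (12.1 to 17.1) at 1 and 12.1 (8.49 to 16.6) at 2. At 3 or more tags it held 18.9 CPM (13.2 to 26.2) from 36 fragments, and the log2 ratio to untagged cells was 0.51 (-0.04 to 0.996). This is no steady order, and the promoter intervals at 0 and at 3 or more overlap. In the 300 bases at the GENCODE gene start, which lie slightly upstream of the RefSeq window printed above, the ratio of tagged to untagged cells was 0.38 (-0.04 to 0.79), from 90 and 116 fragments. This was past the fold with an interval that held 0, and P2rx7 was the 1 gene past it of the 7 members with at least 100 fragments there, against 6.06% of such windows over all genes. Combined within the 3 groups of cells by number of other tags, the body ratio was 0.04 (-0.06 to 0.15). These groups held cells with 8 to 23, 24 to 34 and 35 to 169 other tags, so tag number still varied within them and its part in the ratio was not tested further.

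The 12 sites of P2rx7 were split in direction, with 7 higher and the rest lower in tagged cells. At the intron site at 25.38 kb tagged cells had 13.96 and untagged cells 14.4 CPM, a log2 ratio of -0.04 (-0.30 to 0.21). The sites at the start, 40 bases upstream and 460 bases downstream, had 0.28 (-0.09 to 0.64) and 0.11 (-0.19 to 0.41). The site at 8.86 kb, in an exon, had 3.75 CPM in tagged and 5.48 in untagged cells, a log2 ratio of -0.54 (-1.03 to -0.08). Over all 10 genes, 10 of the 58 sites with at least 100 fragments were past the fold, 5 in each direction, against 14.2% of all open sites, and the median over the 72 sites was 0.01. The share was thus near that of all sites. The interval left out 0 at 6 of the 58, or 10.3%, against 6.02% of all open sites with at least 100 fragments. Besides the P2rx7 site at 8.86 kb these were intron sites of P2rx1 at 8.788 kb (0.63, 0.18 to 1.07), Adora2a at 3.154 kb (0.67, 0.11 to 1.22) and Adora2b at 10.217 kb (0.65, 0.10 to 1.19), all higher in tagged cells. An Entpd1 intron site at 47.235 kb (-0.67, -1.32 to -0.08) and the P2ry1 site at its start (-0.33, -0.58 to -0.08) were lower.

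None of the 10 genes was past the fold over the body by P2X7R tag, where 3.77% of 22429 genes were, and none of the 8 promoters with at least 100 fragments was, where 4.7% of 17165 were. Over the body 0 of the 10 intervals left out 0, against 7.74% over all genes, and in the promoter 1 did, against 6.86%. The median log2 ratio over the body was 0.01 for the 10 genes and 0.00 for all genes. The promoter whose interval left out 0 was that of P2ry1, with 17.7 CPM in tagged and 21.6 in untagged cells and a log2 ratio of -0.28 (-0.51 to -0.07). By tag number P2ry1 had 21.6, 17.2, 21.2 and 14.7 CPM at 0, 1, 2 and 3 or more tags, which is no steady order. The 86 fragments of the P2ry1 body that lay outside Gm37035 went the other way, with a log2 ratio of 0.74 (0.10 to 1.39), but they were under the minimum for a call. P2rx1 (-0.21, -0.47 to 0.04) and Adora2b (-0.21, -0.43 to 0.01) had promoter ratios on the same side, with intervals that held 0. P2rx4 (0.01, -0.15 to 0.16), Entpd1 (0.11, -0.05 to 0.28), Adora2a (0.08, -0.12 to 0.29) and Nt5e (-0.12, -0.44 to 0.18) were not distinguishable between tagged and untagged cells at this depth. By tag number the Adora2a promoter had 20.6 CPM (18.8 to 22.5) at 0 tags, 18.9 (16.2 to 21.9) at 1, 29.3 (23.6 to 36.04) at 2 and 24.2 (17.7 to 32.2) at 3 or more. This is no steady order. With 31 and 43 fragments for P2ry12 and 10 and 17 for P2ry14, their promoters allow no statement on direction. Megakaryocyte genes summed to 91.2 promoter CPM in tagged and 92.3 in untagged cells, and macrophage genes to 42.0 and 44.0. B cell genes had 28.9 and 25.02, a log2 ratio of 0.21 (0.02 to 0.39) in the promoters and -0.01 over the bodies, and their part in the values above was not tested. Of these 8 promoters 5 were higher in tagged cells and the others lower. The summed promoter interval of no other marker list left out 0.

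With 2 or more tags against 0, 2 of the 8 promoters with at least 100 fragments were past the fold, and 10.9% of all promoters were. These were Adora2a, at 0.41 (0.13 to 0.69) from 136 and 496 fragments, and Adora2b, at -0.35 (-0.71 to -0.02) from 83 and 516, so the genes of the adenosine receptors lay on opposite sides. With 3 or more tags their ratios were 0.25 (-0.24 to 0.67) and -0.16 (-0.71 to 0.31), and 2 other promoters were past the fold, where 22.5% of all promoters were: P2rx7, given above, and P2ry1 (-0.53, -1.16 to -0.0047).

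When the 165 cells with 3 or more tags were set against untagged cells, 2 of the 10 genes were past the fold over the body, and 17.3% of all genes were. These were P2ry12, with 12.1 CPM against 21.0 (-0.77, -1.47 to -0.19; 23 and 505 fragments), and P2ry1 (-0.42, -1.004 to 0.07; 32 and 550 fragments). For P2ry12 the order was not steady either, with 20.6 CPM at 1 tag and 23.5 at 2, and the ratio of all tagged to untagged cells was -0.06 (-0.28 to 0.15). Entpd1 had 0.31 (0.12 to 0.49), from 271 and 2775 fragments, just under the limit.

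**Figure D4:**
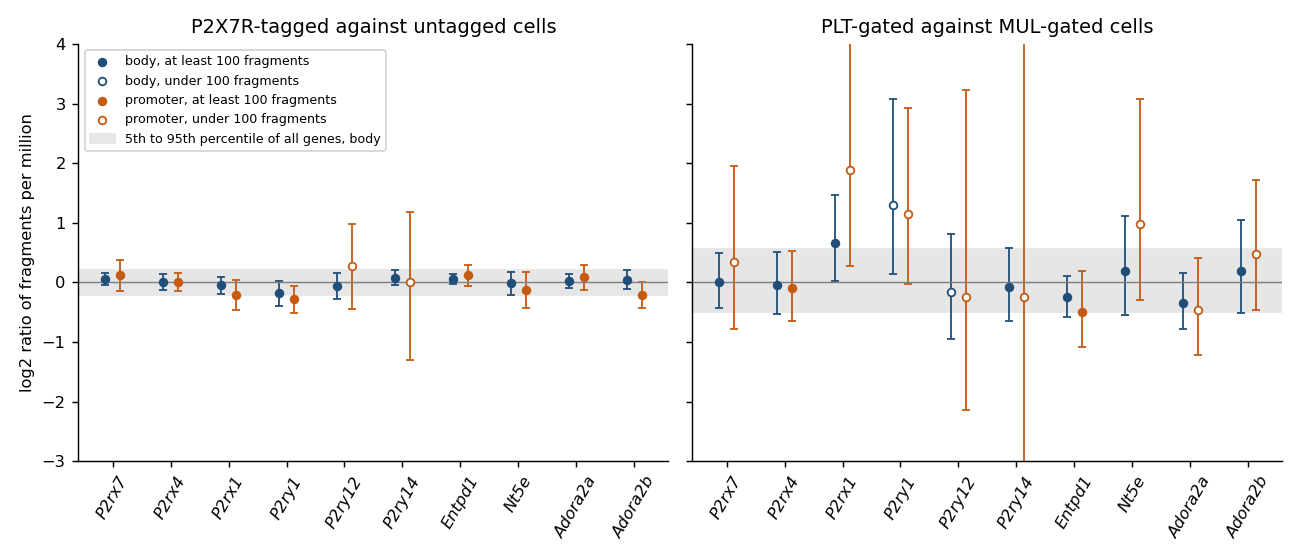
Log2 ratio of CPM for the body (blue) and promoter (orange) of each gene, for P2X7R-tagged against untagged cells on the left and PLT-gated against MUL-gated cells on the right. Bars are 95% intervals for counting error, cut where they leave the axis, and open points rest on under 100 fragments. The grey band spans the 5th to the 95th percentile of body ratios over all genes with at least 100 fragments. No band is drawn for promoters. On the left all body ratios lie inside the band, and on the right P2rx1, P2ry1 and the promoter of Nt5e lie above it. Of these only the P2rx1 body rests on at least 100 fragments.

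The study's methods divide stem cells into platelet-biased (PLT) and multilineage (MUL) cells by CD61 and CD274, high in PLT, and CD357 and CD27, high in MUL. Cells above the median for one pair and not above it for the other were taken as 342 PLT-gated and 61 MUL-gated cells, with P2X7R left out of the gate. The study's first panel also held P2X7R, which was then dropped because it added little. The study's main text gave P2X7R as low in PLT cells, and a supplementary legend gave it as positive. Over its body P2rx7 had 79.1 CPM behind the PLT gate and 78.3 behind the MUL gate, a log2 ratio of 0.00 (-0.44 to 0.49), an interval that reaches past the limit on both sides. Of the 8 genes with at least 100 fragments, 2 were past the fold over the body, against 28.7% of all genes. P2rx1 had 51.4 against 31.6 CPM, a ratio of 0.67 (0.02 to 1.46) that rested on 182 and 19 fragments, and Adora2a had 63.5 against 80.0, a ratio of -0.34 (-0.79 to 0.15) that turned to 0.31 in cells with at least 50 tags. P2ry1 had 22.3 against 8.33 CPM, a log2 ratio of 1.29 (0.14 to 3.08), but with 79 and 5 fragments it was under the minimum for a call. In the promoter of P2rx1 there were 54 and 2 fragments, a log2 ratio of 1.89 (0.27 to 5.28), which was also under that minimum and turned to -0.11 in cells with at least 50 tags (3 and 4 fragments). Over bodies the intervals of 2 of the 10 genes, P2rx1 and P2ry1, left out 0, where 6.26% of genes with at least 100 fragments had such an interval. Over promoters 1 of the 10 did, that of P2rx1, where 4.92% of promoters with at least 100 fragments did. Of the promoters, only those of P2rx4 and Entpd1 held at least 100 fragments behind the gates, and 1 was past the fold, against 32.4% of all promoters: Entpd1, with 32.5 against 44.97 CPM from 115 and 27 fragments, a ratio of -0.49 (-1.08 to 0.19). P2ry12, which with P2ry1 encodes the ADP receptors of platelets, had -0.16 (-0.95 to 0.82) over the body. These values rest on few MUL-gated cells. Without the deepest 5% of cells the medians changed, the gates held 256 and 89 cells, and the P2rx1 body ratio was 0.08. When the gates were set on tags centred for each cell's total, which gave 251 and 252 cells, P2rx1 had 0.43 (0.07 to 0.79) and P2ry1 0.27 (-0.30 to 0.85) over the body, the P2rx1 promoter had 0.10 (-0.56 to 0.75), and 2 of the 10 genes were past the fold, against 14.1% of all genes.

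Cells were also split at the median of each of the 12 antibodies. Of the 120 body intervals of the 10 genes, 12 left out 0, which is 10.0%, and over all genes the share averaged 7.15% and ran from 5.26% to 11.97% by antibody. Of the 96 promoter intervals over at least 100 fragments, 7 left out 0, or 7.29%, close to the 6.34% over all promoters. For the antibody to CD274 (PD-L1), 3 of the 10 genes had such an interval and 11.97% of all genes did. P2rx7 had 86.9 CPM in CD274-high and 76.3 in CD274-low cells, a log2 ratio of 0.19 (0.09 to 0.29). Its neighbour P2rx4 had 0.21 (0.08 to 0.34) over the body and 0.24 (0.09 to 0.39) in the promoter, while P2ry12 had -0.22 (-0.42 to -0.01). None of the 10 was past the fold by CD274, where 4.36% of all genes were. CD274 supplied most tags: in cells without a P2X7R tag it averaged 20.4 of 29.7 tags per cell. Its split used raw counts, so CD274-high cells also tend to have more tags in all, and the part of total tag number was not tested. For CD357, 4 had such an interval and 7.76% of all genes did: P2rx7 had 0.12 (0.02 to 0.23), P2rx4 0.13 (9.4e-05 to 0.26), P2ry14 0.16 (0.03 to 0.29) and Nt5e -0.23 (-0.43 to -0.04). The Nt5e promoter, with 8.55 CPM in CD357-high and 11.2 in CD357-low cells, was past the fold at -0.39 (-0.71 to -0.09), where 4.54% of promoters were. The P2rx4 promoter went the other way by CD357, at 0.19 (0.03 to 0.34), and was not past the fold. P2ry1 had 0.22 (0.02 to 0.41) over the body and 0.21 (1.3e-05 to 0.41) in the promoter by CD61. P2ry12 had 0.27 (0.04 to 0.49) by CD106, the opposite direction to that by CD274, P2rx1 had -0.17 (-0.34 to -0.0010) by CD27, and Nt5e had -0.23 (-0.44 to -0.02) by CD201. Adora2a was past the fold by CD183 (CXCR3) at 0.35 (0.14 to 0.56), where 15.1% of genes were, and its promoter at 0.37 (-0.03 to 0.73), where 19.3% of promoters were. By CD201 the Adora2a promoter went the other way, at -0.24 (-0.47 to -0.01), and by CD68 the Entpd1 promoter had 0.31 (0.01 to 0.58). Neither of these was past the fold. The remaining calls came from splits with few cells above the median. By CD163 (71 such cells), Adora2a at -0.42 (-0.95 to 0.03) and P2ry14 at -0.40 (-0.996 to 0.09) were past the fold over the body, where 35.1% of genes were, and so were 3 of 8 promoters, where 42.6% were. By CD206 (82 such cells), P2rx7 at -0.35 (-0.78 to 0.02), P2ry1 at -0.49 (-1.46 to 0.24) and Nt5e at -0.33 (-1.19 to 0.33) were, where 31.9% of genes were, and so were 3 of 8 promoters, where 38.3% were. None of these CD163 and CD206 intervals left out 0. CD274 and CD357 tags were also more frequent in P2X7R-tagged cells, at 22.7 against 20.4 and 3.73 against 2.98 per cell, and the splits share their cells.

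**Figure D5:**
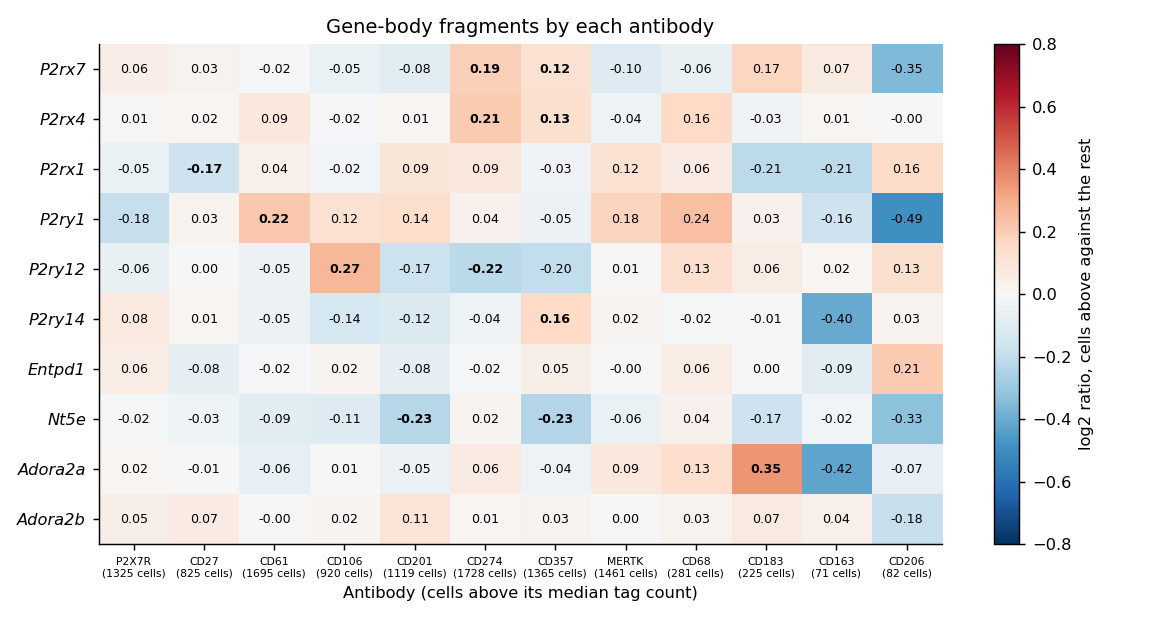
Log2 ratio of gene-body CPM between cells above the median tag count of an antibody and the remaining cells, for the 10 genes (rows) and 12 antibodies (columns, with the number of cells above the median). Bold values have a 95% interval for counting error that leaves out 0. P2rx7 and P2rx4 are bold and positive under CD274 and CD357, and the columns with under 100 cells, CD163 and CD206, hold large values that are not bold.

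Of 32 further genes of purine signalling, 26 had an open site within 1 kb of the start (63.6% of all protein-coding genes had one). Their median promoter level was 7.38 CPM, and 15 of the 32 were above the protein-coding median of 9.92. The most open promoters were those of the kinases Adk (65.1 CPM) and Dck (55.7), which phosphorylate adenosine and deoxynucleosides, the channel gene P2rx6 (40.4) and Entpd5 (31.9). The genes without a site were P2ry4, Entpd4, Entpd8, Enpp3, Adora3 and Slc28a2. Entpd4 held 0 promoter fragments, and since a copy, Entpd4b, is annotated on the same chromosome, this value is uncertain. None of the 29 bodies with at least 100 fragments was past the fold by P2X7R tag, and 2 of 26 promoters were, against 4.7% of all promoters. These were Slc29a1, the nucleoside transporter ENT1, with 69 and 75 fragments in tagged and untagged cells (0.62, 0.13 to 1.11), and P2ry6, a UDP receptor, with 74 and 156 (-0.33, -0.75 to 0.08). The median promoter ratio over the list was 0.00. Of 9 inflammasome genes, 7 had a site near the start, beside the same 63.6%. Txnip, which binds NLRP3 and thioredoxin, had 41.5 promoter CPM, the NLRP3 partner Nek7 31.8, the adaptor gene Pycard 17.1 and the pore gene Gsdmd 11.4. The sensor Nlrp3 itself had 1.17 CPM and no site, and Il1b, which encodes its cytokine product, had 1.97 and no site. None of the 9 inflammasome bodies was past the fold by P2X7R tag, where 3.77% of all genes were, and none of the 7 promoters with at least 100 fragments was, where 4.7% were. The promoters of Nlrp3 (0.43, -0.50 to 1.33) and Il1b (0.44, -0.26 to 1.13) held 45 and 76 fragments, too few for a call.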

How the data were processed

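Open chromatin, RNA and antibody tags of 1 pool of LT-HSCs were deposited as 3 libraries, and the RNA matrix was not analysed here. The authors made the ATAC fragments with Cell Ranger ARC 2.0.2 on mm10, by the submitters' processing notes, and deposited them with counts of reads per fragment and per-barcode metrics. Tag counts per barcode and antibody were deposited as whole numbers; CITE-seq-Count produced them (version not given in sources used here). Every kept cell passed the study's limits of 3000 peak fragments and 15% of fragments in peaks. Each fragment was counted once, whatever its read count, in barcodes with at least 10 summed tags, if an end fell in the window: the promoter (1 kb on each side of the GENCODE M21 gene start) or the gene body plus 2 kb upstream, on chromosomes 1 to 19, X and Y. No ends were shifted again. Levels are counts per 1000000 nuclear fragments of the cells compared (CPM). Ratios of levels carry a prior of 0.5 counts in each group, exact conditional binomial intervals stand beside them, and levels and shares of cells have exact Poisson and Clopper-Pearson intervals at 95%. Cells from 1 pool are not replicates, so the intervals do not cover animals or preparations, and fragments in 1 cell are not independent. The counting and the ratio were tested on simulated data. No doublet caller was run. The deposited feature list names 1 antibody, CD106, with the description of another, and identifiers were used. Members and lists were chosen with earlier results of these data known. All 10 members are named, and of the 32 purine and 9 inflammasome genes the 4 with the most promoter fragments, those with none or the fewest and those past the fold are named. The remaining genes without an open site were named after their values were seen. Sequences are from RefSeq windows (250 bases before to 50 after a start, on GRCm38, which is mm10) that matched 9 of the 10 members and from the genome of that build. Alternatives were other counting, scaling, cell filters, tag thresholds, gates and site thresholds. Python 3.11.15, numpy 2.4.6, scipy 1.17.1 and pandas 2.3.3 were used.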

Additional observations from a re-analysis of the deposited data

Results flagged for a closer look

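Tags that matched no antibody of the list were not part of any comparison. They made up 12.1% of all tags and averaged 4.62 per P2X7R-tagged cell and 4.19 per untagged cell, and their source was not tested.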

How the results depend on the processing

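The P2rx7 body ratio by P2X7R tag of 0.06 was -0.10 with 2 or more tags against 0. Its promoter ratio of 0.12 was 0.51 with 3 or more tags against 0 and 0.38 in the window from 250 bases before to 50 after the start. Over 11 alternatives the promoter ratio ran from 0.01 to 0.51. Over bodies, the count of members past the fold by P2X7R tag was 0 in each alternative but that of 3 or more tags, where it was 2 (17.3% of all genes). Over promoters it was 0 for tagged against untagged cells and, in alternatives added after seeing the data, 2 with 2 or more tags (10.9% of all promoters), 2 with 3 or more (22.5%) and 1 in the window from 250 bases before to 50 after the start (6.06%). Between the PLT and MUL gates the count over bodies was 2 (28.7% of all genes). It was 0 with at least 50 tags (23.9%), where no member kept 100 fragments, 1 without the deepest 5% of cells (22.0%), 1 after thinning to 6000 fragments (24.6%), 3 with low counts kept (49.8%) and 1 with promoters in place of bodies (32.4%). Without the deepest 5% of cells the medians that set the gates changed, the MUL gate held 89 cells and the P2rx1 body ratio was 0.08. With at least 50 tags (22 and 25 cells) the Adora2a body ratio of -0.34 turned to 0.31 and the P2rx1 promoter ratio of 1.89 to -0.11, and the P2rx1 body ratio was 0.02. The 72 open sites over members became 109 at 5 times the mean and 42 at 20 times, and were 56 with fragments shorter than the DNA of a nucleosome. Members with an open promoter were 8 or 9 under the alternatives. P2ry12 and P2ry14 have no base outside other genes, and the 86 fragments of P2ry1 outside Gm37035 gave a log2 ratio of 0.74 (0.10 to 1.39), against -0.18 over the whole body. Every kept cell passed the peak-region filters, so that alternative changed nothing. No paired analysis was possible because the groups compared are cells of 1 ATAC library from 1 pool, with no replicate numbers. Depth limits the promoters of P2ry12 and P2ry14, with 74 and 27 fragments, the most.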
